A study of Mus musculus with 6 samples.

Results

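The long intergenic non-coding RNA (lincRNA) genes described here were those with 5 or more counts summed over the 6 libraries, leaving out Gm42418 and Gm26917, which cover the ribosomal DNA-like locus. Of the 47729 genes counted, 3543 had the lincRNA biotype in GENCODE M21, and 15 of the 3541 outside that locus reached 5 counts. Members were chosen by their summed counts over both groups, so that their abundance is a description and not a result. The libraries held RNA of extracellular vesicles (EVs) captured with the Vn96 peptide from the medium of WEHI-231 cells, a single mouse B lymphoma line. The cells of the isotype group had received an isotype control antibody and those of the anti-CD24 group the M1/69 antibody to CD24, each at 10 µg/mL with 5 µg/mL of a secondary antibody for 1 h, with 3 biological replicates per group. No untreated cells and no RNA of the cells themselves were among the samples analysed here. All isotype libraries carried one barcode and all anti-CD24 libraries another, so that barcode and antibody cannot be told apart.

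lincRNAs are transcribed from their own loci between protein-coding genes and are spliced or unspliced RNAs without a known long reading frame. Several of the best studied, among them Malat1 and Neat1, stay in the nucleus, where they are parts of nuclear speckles and paraspeckles. EVs are shed from the plasma membrane or released from multivesicular bodies. The annotation also puts in this class transcripts of tandem repeats and copies of other genes that lie between genes.

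Counts on genes ran from 166129 to 794185 per library, and non-rRNA counts, those on neither rRNA nor ribozyme genes, from 15626 to 112042. The non-rRNA counts still include mitochondrial rRNA genes and Gm42418 and Gm26917, which together held 3636 to 30819 counts per library for the latter pair. The 15 lincRNAs together held 252 counts, against 91388 on Gm42418 and Gm26917. A single count was worth 1.26 to 6.02 CPM (counts scaled to a library total of 1000000). A count of 0 was taken to allow up to 3 counts, which were worth 0.00268% to 0.0192% of a library's non-rRNA counts. Levels scaled in the same way to the non-rRNA counts are given as non-rRNA CPM. Replicates of a group differed by more than sampling noise, with chi-square values per degree of freedom of 16.4 to 340 between pairs. Among markers of the cells, Ighm, the heavy chain of IgM, had 23 of the 46 counts on the B cell markers. The 4 T cell markers had 0 counts. The 4 globin genes held 99 counts, all in anti-CD24 replicate 1, and 3 of 4 myeloid markers held 8 counts, 4 each in anti-CD24 replicates 1 and 2. The part of other cells or of serum in the lincRNA counts was not tested.

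The most abundant lincRNA was made of satellite-like repeats. Gm26870 (ENSMUSG00000097312) lies on the minus strand of GRCm38 at chr9:3000282-3038313, at the start of the assembled part of chromosome 9, and has 7 exons that sum to 2692 bases. One of its transcripts was identical to itself at 95.9% of bases when shifted by 234 bases. The major satellite, the tandem repeat of mouse pericentromeric heterochromatin, has a unit of this length. Sequences are those of the GENCODE M21 transcripts on GRCm38. The first copies in that transcript's first exon are shown because they make clear that the gene is a run of repeats. They lie at chr9:3038077-3038310 and chr9:3037843-3038076 on the minus strand and differ at 17 of 234 bases, which stand in capitals.
Gm26870 copy 1: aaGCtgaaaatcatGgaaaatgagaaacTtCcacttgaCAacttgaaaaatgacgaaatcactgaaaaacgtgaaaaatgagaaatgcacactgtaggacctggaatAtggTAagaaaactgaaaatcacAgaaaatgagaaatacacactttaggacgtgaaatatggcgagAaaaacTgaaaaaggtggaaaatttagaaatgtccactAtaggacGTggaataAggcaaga
Gm26870 copy 2: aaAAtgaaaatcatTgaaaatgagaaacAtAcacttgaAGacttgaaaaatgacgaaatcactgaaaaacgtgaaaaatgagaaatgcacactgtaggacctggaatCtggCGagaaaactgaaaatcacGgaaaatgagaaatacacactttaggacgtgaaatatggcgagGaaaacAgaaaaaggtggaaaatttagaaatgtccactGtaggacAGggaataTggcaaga

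Another sequence shows how a lincRNA gene can hold the letters of a coding gene. Gm10076 (ENSMUSG00000060143) is a single exon of 384 bases at chr14:105681828-105682211 on the plus strand. Over 383 bases it was 99.5% identical to Rpl41, the gene of a protein of the large ribosomal subunit, with 2 mismatches. Bases 42 to 119 form a reading frame of 26 codons including the stop, at chr14:105681869-105681946. The start and stop codons are in capitals.
Gm10076 frame: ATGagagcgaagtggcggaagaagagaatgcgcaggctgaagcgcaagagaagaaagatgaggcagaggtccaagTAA
These 78 bases were equal to the annotated coding sequence of 3 of the 4 coding transcripts of Rpl41, and they were also present unchanged in the processed pseudogenes Gm10736 and Gm10180. A stretch of 75 bases was shared with a further pseudogene, Gm3699.

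A repeat inside a well studied nuclear lincRNA is given for contrast. Malat1 (ENSMUSG00000092341) is a single exon of 6983 bases at chr19:5795690-5802672 on the minus strand. Its bases 558 to 704, at chr19:5801969-5802115, have the letters of a B1 element, a short interspersed repeat of rodents. They are printed in lower case throughout because the whole stretch is shared.
Malat1 shared stretch: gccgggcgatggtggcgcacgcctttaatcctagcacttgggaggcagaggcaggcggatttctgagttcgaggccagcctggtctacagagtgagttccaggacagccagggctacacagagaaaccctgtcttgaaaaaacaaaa
Transcripts of 2280 other genes matched this stretch at 90% identity or more over at least 50 bases, 1153 of them on the same strand. Outside all such matches, 92.3% of Malat1 had no counterpart among the transcripts of other genes.

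Few lincRNA genes were seen at all. Outside the ribosomal DNA-like locus, 228 of 3541 lincRNA genes (6.44%) had at least 1 count, with 570 counts in all. The corresponding share was 8.01% of 2359 antisense genes, 13.7% of 659 processed transcripts and 33.4% of 21697 protein-coding genes. The median exonic length was 1083 bases for the lincRNA genes, 924 for the antisense genes, 2017 for the processed transcripts and 3515 for the protein-coding genes, and these shares were not corrected for it. The 15 members held 252 of the 570 counts, and the other 318 were spread over 213 genes with 1 to 4 counts each.

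The threshold itself fell between genes seen in single libraries. Of the 4 genes just inside it, with 5 counts, 3 had all their counts in 1 library and the other had them in 3. Of the 11 genes just outside, with 4 counts, 9 had them all in 1 library, 6 of these in isotype replicate 3.

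Among the members, 1 was detected in all 6 libraries, 3 in 5 libraries, 3 in 3, 4 in 2 and 4 in a single library. Isotype replicate 3 held 107 and anti-CD24 replicate 2 held 86 of the 252 counts. These libraries thus gave 76.6% of the member counts and 48.9% of the non-rRNA counts of the series. Isotype replicate 3 alone had the most counts for 7 of the 15 genes and anti-CD24 replicate 2 alone for 6, with ties for the other 2. Gm12668, Gm38246 and Otx2os1 became members through isotype replicate 3 alone, and 5830416I19Rik through anti-CD24 replicate 2 alone. The rule thus in part sets the weight of these libraries, and these values are only a description.

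**Figure D1:**
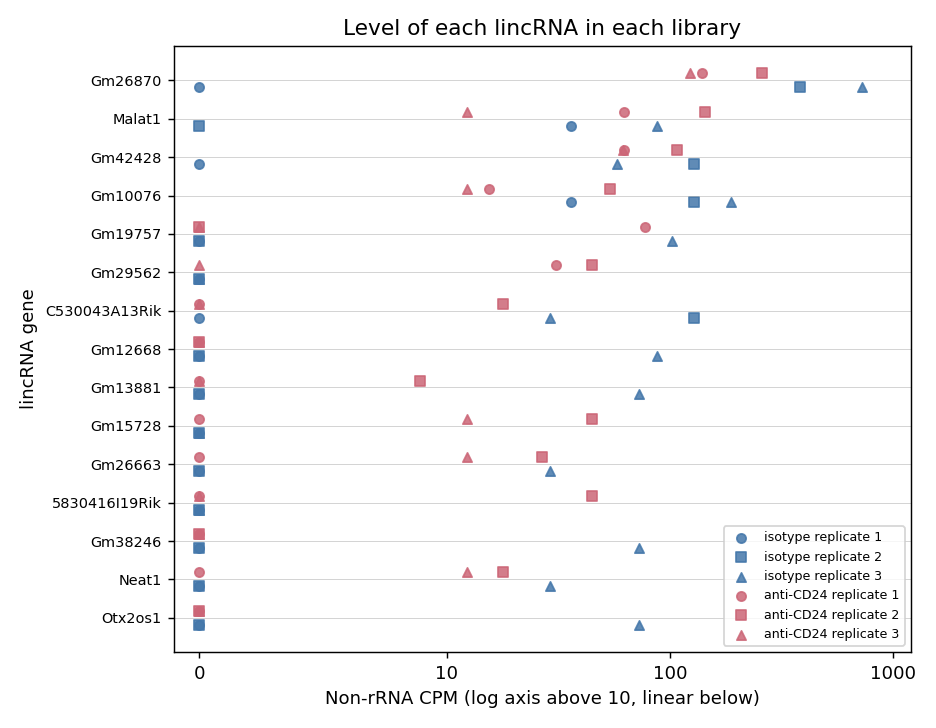
Level of each of the 15 lincRNAs in each library, in non-rRNA CPM (log axis above 10, linear below), with blue for isotype, red for anti-CD24 and a marker shape for each replicate number. Gm26870 reached 725 in isotype replicate 3, and for the genes in the lower part most libraries sit at 0, where markers lie on top of each other.

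Gm26870 held 104 counts, 41.3% of all counts on the members. The isotype libraries had 0, 6 and 50 counts in replicates 1, 2 and 3, which is 0, 384 and 725 non-rRNA CPM. The anti-CD24 libraries had 9, 29 and 10 counts, which is 139, 259 and 123 non-rRNA CPM. Both the lowest and the highest value belonged to the isotype group, within which the anti-CD24 values lay. In bulk EV RNA, fewer vesicles that carry an RNA and less of it per vesicle cannot be told apart.

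The opposite strand of the same region carries 9 predicted protein-coding genes (Gm10722, Gm11168, Gm10721, Gm10720, Gm10719, Gm10718, Gm10717, Gm17535 and Gm10715), and counting took strand into account. These genes held 750 counts, from 21 on Gm10715 to 154 on Gm10717. In the isotype libraries they had 104, 3 and 405 counts, and in the anti-CD24 libraries 132, 76 and 30. In non-rRNA CPM, these 9 genes came to 3269 ± 2870 in the isotype and 1030 ± 891 in the anti-CD24 libraries (SD, n = 3 each). The ranges overlapped, at 192 to 5874 and 368 to 2043.

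The share of the locus's counts that lay on Gm26870 varied from library to library. In the isotype libraries it was 0 of 104 counts (95% Wilson interval 0 to 3.56%), 66.7% of 9 counts (35.4 to 87.9%) and 10.99% of 455 counts (8.44 to 14.2%). In the anti-CD24 libraries it was 6.38% of 141 counts (3.39 to 11.7%), 27.6% of 105 counts (19.97 to 36.8%) and 25.0% of 40 counts (14.2 to 40.2%). Intervals cover counting error only and treat each count as a separate read. The plus-strand genes held most counts in 5 of the 6 libraries, and isotype replicate 2, with 9 counts, was the exception. Only exons were counted, and those of Gm26870 and of the plus-strand genes do not cover the same bases. Gm10717, Gm10722 and Gm10720 share 0 exonic bases with Gm26870, and the other genes share 155 to 299. The share was not corrected for exonic length, so that it does not measure strand alone.

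**Figure D2:**
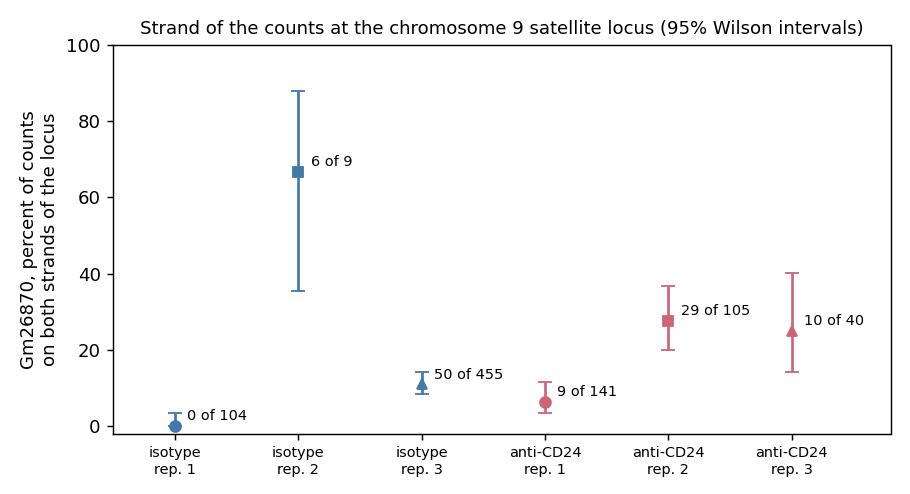
Share, in percent, of the counts on Gm26870 (minus strand) and the 9 plus-strand genes of the chromosome 9 satellite locus that lay on Gm26870. Each library is shown with its 95% Wilson interval and the counts behind the point, without correction for exonic length. The isotype libraries ran from 0 to 66.7% and the anti-CD24 libraries from 6.38 to 27.6%, with every anti-CD24 value inside the isotype range.

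Satellite-like transcripts elsewhere were also counted. In all, 12 other genes matched the Gm26870 transcript at 90% identity or more, all in the reverse orientation. Beyond the 9 genes of the locus they were Gm10800 with 386 counts and Gm10801 with 72 counts, on chromosome 2, and Gm21738 with 71 counts on chromosome 14. Gm10800 had 27, 13 and 204 counts in the isotype and 79, 52 and 11 counts in the anti-CD24 libraries. For Gm10800, as for Gm26870, isotype replicate 3 had the most counts.

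Gm42428 (ENSMUSG00000105353), a single exon of 302 bases at chr5:44136620-44136921 on the plus strand, held 27 counts. One reading frame was free of stop codons over 300 of these bases. The isotype libraries had 0, 2 and 4 counts and the anti-CD24 libraries 4, 12 and 5. Its sequence was 99.007% identical over all 302 bases to part of Gm43305, a processed transcript on chromosome 14 with 33 counts, at 1, 3 and 7 in the isotype and 1, 15 and 6 in the anti-CD24 libraries. Gm48275, not analysed here, was identical to it over 287 bases. Reads from most of this sequence cannot be told apart between the genes, so the count of each alone is uncertain. Anti-CD24 replicate 2 was the highest library of each by count. The groups overlapped for both.

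Gm10076, the Rpl41-like gene printed above, was the only member seen in every library. It had 1, 2 and 13 counts in the isotype libraries and 1, 6 and 1 in the anti-CD24 libraries, or 118 ± 76.8 and 27.1 ± 22.96 non-rRNA CPM (SD, n = 3 each). Rpl41 itself had 2, 2 and 6 counts in the isotype and 11, 5 and 1 in the anti-CD24 libraries. Summed with Rpl41 and the 3 pseudogenes, the family had 3, 10 and 31 counts in the isotype and 12, 17 and 2 in the anti-CD24 libraries. In non-rRNA CPM the sum ran from 108 to 640 in the isotype group and from 24.6 to 186 in the anti-CD24 group, and the groups overlapped. Reads of the shared frame cannot be given to one of these genes. Whether such a read was counted once or for several copies cannot be seen, so the sum may not be of separate reads.

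Gm29562 (ENSMUSG00000101698) is a single exon of 904 bases at chr9:88827522-88828425 on the plus strand. It had 0 counts in every isotype library and 2, 5 and 0 in the anti-CD24 libraries. Other transcripts matched it over all of its length, with 21 genes on its own strand. The longest match was to Gm48161, at 97.2% identity over 907 aligned bases, a gene not analysed here. Noct, the circadian gene nocturnin, matched at 94.98% over 857 bases. Noct had 17 counts, at 1, 0 and 6 in the isotype and 5, 2 and 3 in the anti-CD24 libraries. Gm38246, at chr3:51103660-51105170, was likewise matched over its whole length, with 91.7% identity to Gm30948 over 1508 bases, and its 5 counts all came from isotype replicate 3.

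Counting was stranded, so copies on the same strand are those whose reads could be mixed up with a member's. Gm42428, Gm10076, Gm29562 and Gm38246 had same-strand matches in other genes over at least 90% of their length, and these 4 genes held 63 counts, 25.0% of the total. Gm26870 had no same-strand match among annotated transcripts. Its 12 matching genes, 9 of them at its own locus, all matched it in the reverse orientation. Satellite copies outside annotated transcripts were not searched, so that its counts cannot be taken as those of this locus alone. With Gm26870, 7 genes with 159 counts were matched on the same strand over less than 10% of their length, the others being Malat1, Neat1, Gm13881, Gm26663, 5830416I19Rik and Otx2os1. The remaining 4 genes, matched over 10.4 to 34.3% of their length, held 30 counts. No read was listed as aligned to more than one place in any library, so that the count files do not show which counts came from shared sequence. They also do not show whether a read was counted for several copies.

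**Figure D3:**
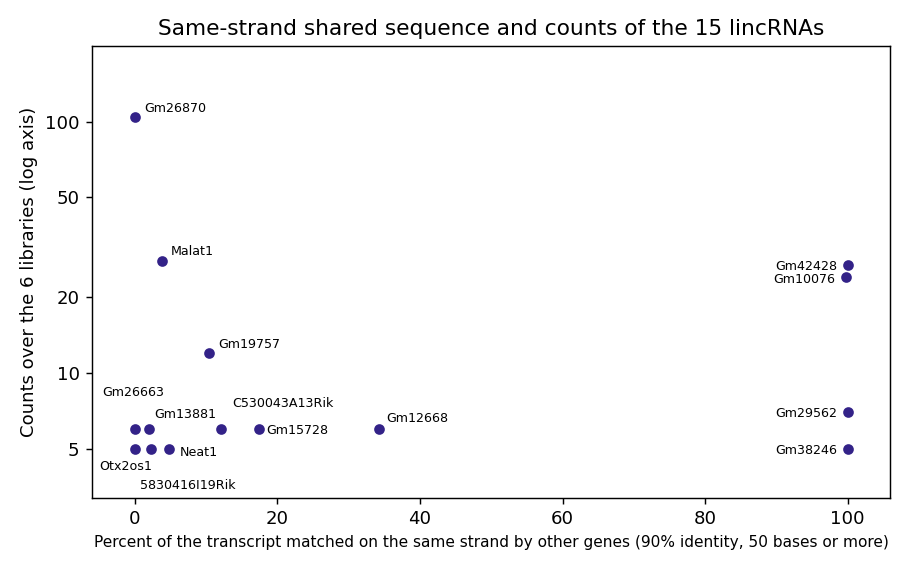
Percent of each lincRNA's longest transcript matched on the same strand by transcripts of other genes at 90% identity over 50 bases or more, against its counts over the 6 libraries (log axis). The 4 points at the right edge are genes matched over nearly all of their length, with 63 of the 252 counts, and Gm26870, with 104 counts and no same-strand match, is the highest point on the left.

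Malat1, a nuclear speckle RNA, was the second most abundant member. It had 28 counts, at 1, 0 and 6 in the isotype libraries and 4, 16 and 1 in the anti-CD24 libraries. In non-rRNA CPM these were 36.0, 0 and 87.0 in the isotype and 61.9, 143 and 12.3 in the anti-CD24 libraries. Anti-CD24 replicate 2 was the highest, and anti-CD24 replicate 3 was below 2 of the 3 isotype libraries, so the groups overlapped. Malat1 overlaps a misc_RNA gene, Gm27694, over 86 bases of its own strand, and a read there is counted for neither gene.

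Neat1 (ENSMUSG00000092274), the scaffold of paraspeckles, lies near Malat1 at chr19:5824708-5845478 on the same strand, with 20771 exonic bases. It had 5 counts, at 0, 0 and 2 in the isotype and 0, 2 and 1 in the anti-CD24 libraries. Per kilobase of exon, Malat1 had 4.01 and Neat1 0.241 counts over the 6 libraries, a ratio of 16.7 (exact 95% interval 6.35 to 55.2, counting error only). These rates divide by all annotated exonic bases of a gene, whichever of its transcripts the counts came from. No library had 3 counts of Neat1. Of 10 paraspeckle protein genes, 6 had a count and held 11 in all, among them Hnrnpk with 4 and Pspc1 with 2, while Nono had 0. Of 12 nuclear speckle protein genes, 10 had a count and held 39, led by Srrm2 with 13 and Son with 7. Ighm had 12.2 counts per kilobase of exon on the same scale.

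Other well known lincRNAs were at or near 0. Of 25 such RNAs listed, 23 were in the files, 15 of them with the lincRNA biotype. Besides Malat1 and Neat1, 3 of the 15 had a count. Xist, which coats the inactive X chromosome, had 2 counts in isotype replicate 1, Meg3, an imprinted maternally expressed RNA, had 1 count in the same library, and Mirt1 had 2 counts in anti-CD24 replicate 2. H19, Pvt1, Miat, Hotair, Lncpint, Trp53cor1, Ftx, Jpx, Mirg and 2900097C17Rik had 0, which at these depths allows up to 3 counts per library.

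Host genes of small RNAs carry snoRNAs or miRNAs within their transcribed sequence. Of 29 listed, 26 were in the files and 12 were lincRNAs, none with 5 counts. Mir124a-1hg had 3 counts and Mir142hg, the host of a miRNA of blood cells, had 1 count, all in isotype replicate 3. Mir17hg and Mir155hg, the hosts of miRNAs known from B cell lymphoma, had 0 counts. Snhg14, an annotated processed transcript and so not a member, had 15 counts, at 3, 0 and 6 in the isotype and 0, 5 and 1 in the anti-CD24 libraries.

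The remaining members were little characterised genes with 5 to 12 counts. Gm19757 (chr6:105481266-105492668, minus strand) had 7 counts in isotype replicate 3 and 5 in anti-CD24 replicate 1 and 0 in the other 4 libraries. C530043A13Rik (chr1:73522095-73529790, minus strand) had 2 counts each in isotype replicates 2 and 3 and in anti-CD24 replicate 2. Gm26663 (chr4:11321944-11342953, plus strand), which overlaps exons of Dpy19l4 and Esrp1 on the other strand, had 2 counts in isotype replicate 3 and 3 and 1 counts in anti-CD24 replicates 2 and 3. For each of these genes the groups overlapped.

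Several were seen in 1 group only or nearly so. Gm15728 (chr5:117389139-117393498) had 5 and 1 counts in anti-CD24 replicates 2 and 3, and 5830416I19Rik (chr5:64044978-64050228) had 5 counts in anti-CD24 replicate 2, with 0 in every isotype library. Gm13881 (chr2:103912024-103918960) had 5 counts in isotype replicate 3 and 1 in anti-CD24 replicate 2. Gm12668 (chr4:91626589-91630139) had 6 counts and Otx2os1 (chr14:48668708-48870683), the transcript opposite the homeobox gene Otx2, had 5, all in isotype replicate 3. With counts in 1 or 2 libraries, these genes give no comparison of the groups.

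For the effect of the anti-CD24 antibody on single genes, 1501 genes that reached 1.0 CPM in at least 3 libraries were compared with edgeR's quasi-likelihood test and Benjamini-Hochberg adjustment over all of them. As 1 count exceeded 1.0 CPM in every library, this asked only for a count in 3 libraries, which 7 of the 15 members had. None of the 7 passed an adjusted p of 0.05, and over all genes tested 1 gene, or 0.0666%, did. At an unadjusted p under 0.05, 0 of the 7 members and 120 of the 1501 genes (7.99%) were found. DESeq2 called 0 members and 0 genes, with 0 members and 95 genes at an unadjusted p under 0.05. The CPM of the groups did not overlap for 0 of the 7 members, against 5.73% of the genes tested that were higher and 6.53% that were lower in the anti-CD24 group.

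The estimates were wide. Gm10076 had a log2 fold change of -1.59 (SE 1.31, adjusted p = 0.627), and Gm42428 one of 1.03 (SE 1.32, adjusted p = 0.760), in edgeR's quasi-likelihood test. By the same test the log2 fold change was -0.64 for Gm26870 (SE 1.00, adjusted p = 0.799) and 0.84 for Malat1 (SE 1.31, adjusted p = 0.799). C530043A13Rik, Gm26663 and Neat1, each with 5 or 6 counts, had log2 fold changes of -1.74, 0.30 and -0.04. The median log2 fold change was -0.04 over the 7 members, and -0.29 over all genes tested. The sign was not stable for Gm26870, which came to 0.40 without isotype replicate 3, nor for Malat1, which came to -0.45 without anti-CD24 replicate 2. With a library left out, Gm10076 ran from -2.76 without anti-CD24 replicate 2 to -0.90 without anti-CD24 replicate 1, and Gm42428 from 0.43 without anti-CD24 replicate 2 to 1.57 without anti-CD24 replicate 1.

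**Figure D4:**
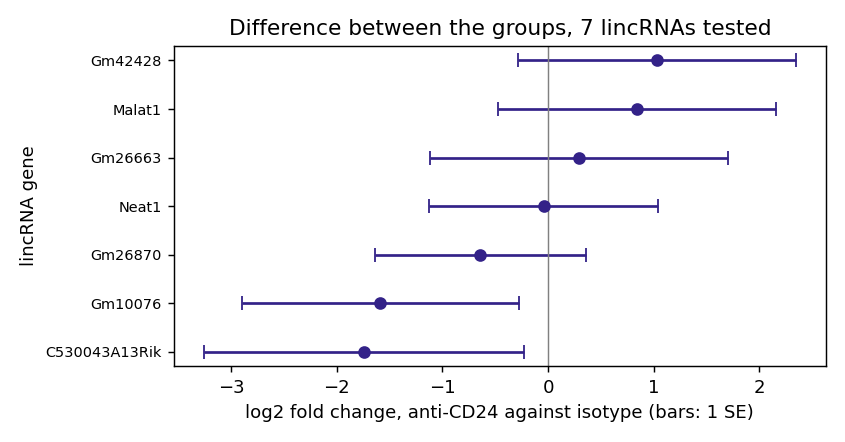
Log2 fold change of the 7 lincRNAs tested, anti-CD24 against isotype, with bars of 1 standard error from edgeR's quasi-likelihood test and a grey line at no change. The estimates ran from -1.74 for C530043A13Rik to 1.03 for Gm42428, and standard errors were 1.00 to 1.51.

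For the genes that share sequence with members the same fit gave no call either. The 9 plus-strand genes opposite Gm26870 had log2 fold changes from -2.42 to -0.98, with a median of -1.34, and 0 of 9 passed (smallest adjusted p = 0.542 by edgeR's quasi-likelihood test). They share their repeat with each other, so that they are not separate observations. Rpl41 had a log2 fold change of 0.04, Gm43305 one of 0.23 and Noct one of 0.21. For Gm10736, the pseudogene with the frame of Rpl41, it was -2.33 (SE 1.49). For the satellite-like genes Gm10800, Gm10801 and Gm21738 it was -1.17, -1.36 and -0.96. Of the paraspeckle protein genes 1 and of the nuclear speckle protein genes 4 were tested, and 0 were called higher or lower.

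As a share of the non-rRNA counts, the 15 lincRNAs made up 0.00720, 0.0768 and 0.155% in isotype replicates 1, 2 and 3, and 0.0387, 0.0768 and 0.0246% in anti-CD24 replicates 1, 2 and 3. The means were 0.0797% ± 0.0740 for isotype and 0.0467% ± 0.0270 for anti-CD24 (SD, n = 3 each), a difference of -0.0331 percentage points that is smaller than the SD of the isotype libraries. Without isotype replicate 3 the difference was 0.00467 points, in the other direction. In isotype replicate 1 the 95% Wilson interval was 0.00197 to 0.0262%, and in isotype replicate 3 it was 0.128 to 0.187%. The intervals of these replicates of one group did not overlap. The share of isotype replicate 3 is raised by the choice of members, as Gm12668, Gm38246 and Otx2os1 reached 5 counts through that library alone. Between libraries of the same replicate number, which shared a sequencing run, the difference was 0.0315 points in replicate 1, near 0 in replicate 2 and -0.131 points in replicate 3.

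**Figure D5:**
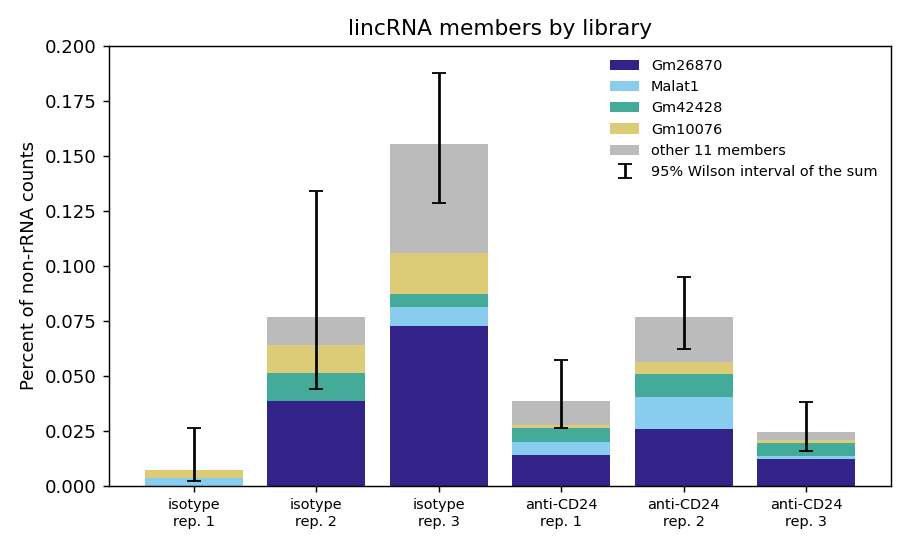
Percent of the non-rRNA counts on the 15 lincRNAs in each library, stacked by gene, with the 95% Wilson interval of the sum. Isotype libraries ran from 0.00720 to 0.155% and anti-CD24 libraries from 0.0246 to 0.0768%, and Gm26870 was the largest part in 5 of the libraries.

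With all lincRNA genes outside the ribosomal DNA-like locus, including those with 1 to 4 counts, the shares were 0.155, 0.211 and 0.341% in the isotype and 0.0650, 0.154 and 0.0540% in the anti-CD24 libraries. The lowest isotype and the highest anti-CD24 library were nearly equal. Counted per 1000 protein-coding counts instead, the same genes came to 14.5 ± 7.18 in the isotype and 10.8 ± 5.08 in the anti-CD24 libraries (SD, n = 3 each), and the 15 members to 5.11 ± 4.84 and 5.50 ± 2.47, so that the direction for the members depended on the denominator.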

How the data were processed

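The authors prepared unfragmented libraries of total EV RNA without rRNA depletion, read them on an IonTorrent PGM, used FASTX for trimming, tmap for alignment to GRCm38 and HTSeq 0.5.4p5 for counting on Ensembl exons (union mode, stranded), and deposited raw counts per gene, without normalization. The submitters' processing notes name GRCm38.p4. Of the 5 summary lines per file, none entered a test, and 0 reads were listed as not uniquely aligned. Labels gave the groups. Biotypes, positions and transcripts came from GENCODE M21, which lacked 419 of the 47729 genes.

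Genes with at least 1.0 CPM in 3 libraries were tested with edgeR 4.0.16 (quasi-likelihood, TMM, condition only) at an adjusted p of 0.05, with the standard error taken as the size of the log2 fold change divided by the root of F, after a trial on simulated counts. DESeq2 1.42.0 was an alternative. A gene at 0 in a whole group got no fold. Shares were described without a test. Replicate numbers mark shared runs by the run names. Deviations of same-numbered libraries from their group means had correlations of -0.02, 0.04 and -0.14 over the genes tested. Counting noise on genes with few counts can lower such values, so they do not show whether libraries of a run deviated together. Transcripts were compared with BLAST+ 2.17.0 (50 bases, 90% identity).

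Named genes were all members (a limit of 20), the 3 smallest p in each direction, members whose groups did not overlap, and listed lincRNAs, host genes and partners. The values of some listed genes are not reported here. The members, lists and tests were chosen with earlier results of these data known.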

Additional observations from a re-analysis of the deposited data

How the results depend on the processing

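No member was called under any alternative that could be fitted, namely DESeq2, the replicate block, library size only, removal of the rRNA, ribozyme and mitochondrial rRNA genes, no filter, and each library left out. With a library left out, 4 to 7 members passed the filter and were tested. With at least 10 counts in every sample, no member was left to test. Over all genes, the single call became 0 with DESeq2, 0 with the replicate block, 0 with at least 10 counts in every sample and 2 with no filter. With a library left out it ranged from 0 to 48. It was 0 without isotype replicate 1 and 0 without anti-CD24 replicate 2, 48 without anti-CD24 replicate 1 and 3 without anti-CD24 replicate 3. The cause was not tested.

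Of 68 refits of single tested members, 58 kept the direction and 10 did not, none past the threshold. With the replicate block the log2 fold change of Gm26870 was 0.22 (adjusted p = 0.988, edgeR) and that of Neat1 0.47. With a library left out, the range was -1.36 to 0.40 for Gm26870, -0.45 to 1.97 for Malat1, -0.28 to 1.10 for Gm26663, -0.62 to 0.74 for Neat1, and, with no change of direction, -2.76 to -0.90 for Gm10076, -2.03 to -0.88 for C530043A13Rik and 0.43 to 1.57 for Gm42428, with 0.40 without isotype replicate 3 and -0.45 without anti-CD24 replicate 2 for the first pair. Gm26663, Neat1 and C530043A13Rik passed the filter in 3 of these 6 fits. Gm26663 came to -0.26 with DESeq2, -0.0027 without isotype replicate 1 and -0.28 without isotype replicate 2. Neat1 came to 0.50 without the rRNA, ribozyme and mitochondrial rRNA genes, 0.39 with no filter and 0.74 without anti-CD24 replicate 1. The median log2 fold change of all genes tested moved from -0.29 to -0.97 with DESeq2 and to 0.02 without those rRNA genes, so directions are relative to it.

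The difference in share of the members, -0.0331 points, was smaller than the pooled SD between replicates of 0.0557 points, so that its stability cannot be judged from it. It was -0.0531 points of the non-rRNA counts without Gm42418 and Gm26917 and -0.0135 points without Gm26870, and with a library left out it ran from -0.0693 points without isotype replicate 1 to 0.00467 points without isotype replicate 3. Among settings chosen after seeing the data, it was -0.144 points with all lincRNA genes outside the ribosomal DNA-like locus and 0.0393 points relative to protein-coding counts, and it was -0.00599 points for members matched over less than 90% of their length on either strand. The mean log2 ratio within replicate pairs was -0.08, against -0.77 between the group means. The members had 252 counts in all, and no size of difference that this depth and spread could show was measured.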
